A study of Bos taurus with 23 samples.

Results

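FCER1A (ENSBTAG00000012887) and SIGLEC14 (ENSBTAG00000035868) are genes named for surface receptors of myeloid cells. Their transcripts were followed through RNA sequencing of peripheral white blood cells (PWBC) of 23 beef heifers. They are 2 of the 24616 genes in the count tables of both stations. Both genes were chosen on the station A contrast of pregnancy outcome, where they are among the genes that the study called lower in heifers not pregnant to artificial insemination (AI). Their station A levels by outcome are therefore given as a description, with no test. Both passed the filter of the study in each station, which retained genes with more than 1 CPM (the read pairs of a gene scaled to the same total in each library) in 6 or more libraries, 12128 genes in station A and 10832 in station B.

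All heifers were pubertal Angus x Simmental crosses that were synchronized in estrus with GnRH, a progesterone insert and prostaglandin and inseminated at a set time, and blood was drawn right afterwards. At station A, 6 heifers became pregnant to that insemination (AI-pregnant) and 5 only later, to natural breeding with bulls (NB-pregnant). At station B, 6 heifers were AI-pregnant and 6 did not become pregnant in a shorter breeding season (non-pregnant), so the second group is not the same outcome in both stations. Each heifer gave 1 library, heifers were picked within a station to be alike in age and body measures, and PWBC are a mixture of all white cells of the blood. The libraries of the stations also carry separate series of library numbers, so station and library series cannot be told apart.

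FCER1A is the alpha chain of the high-affinity receptor for immunoglobulin E, the chain that holds the antibody outside the cell. Basophils and mast cells are known for it, and crosslinking of bound IgE by antigen makes them release histamine, while in humans dendritic cells and monocytes can carry it too. SIGLEC14 is a lectin of the immunoglobulin superfamily that binds sialic acid on glycans. In humans it sits on neutrophils and monocytes, has no inhibitory tail of its own and signals through the adaptor DAP12, as the activating partner of the inhibitory SIGLEC5.

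The study assayed both genes by quantitative PCR in the same RNA. By that assay it reported both lower in NB-pregnant heifers of station A, at a looser p-value threshold than for sequencing. That RNA came from the heifers on which the genes were selected. The primers are shown here because they fix which transcripts the study took the names FCER1A and SIGLEC14 to mean. Letters in capitals are the last 5 bases at the 3′ end, where a polymerase extends and a mismatch costs most.
FCER1A primer 1: gtgggcagaattcagAGGCT
FCER1A primer 2: gccagaaatagttgctttGAGGG
SIGLEC14 primer 1: tccggctcaacgtctCCTAT
SIGLEC14 primer 2: ctccaggatgggcaGTGAC
The primers of FCER1A have 20 and 23 bases with 55% and 47.8% G or C, and those of SIGLEC14 have 20 and 19 bases with 55% and 63.2% G or C. In the RefSeq annotation of ARS-UCD2.0, a later build than the UMD3.1 of the files, FCER1A lies between the olfactory receptor genes OR10J3 and OR10J2. The transcript on which the SIGLEC14 primers were designed belongs there to LOC614923, next to LOC512863 on one side and SPACA6 on the other. The study annotated SIGLEC14 by hand from public databases. Siglec genes are close paralogs, and the authors removed read pairs that aligned to several places, so the level of SIGLEC14 is uncertain by whatever it shares with its relatives.

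Libraries differed from one another also within an outcome group, and these differences touch both genes. Totals ran from 4826003 to 20434401 read pairs counted on genes. In station A, 5 libraries (SL220767, SL220771, SL220772, SL220773 and SL220774) gave 24.1% to 29.4% of their read pairs to the 100 most abundant genes and had totals of at most 6105250. The other 6 gave 13.1% to 18.4%, and these sets are called top-heavy and even below. Of the top-heavy libraries, 3 were NB-pregnant and 2 AI-pregnant. In station B, SL253804, SL253808 and SL253811 stood apart from the other 9 libraries on the first principal component of expression, whose share of the variance was 85.5% in station B and 71.3% in station A. The second of them was AI-pregnant and the other two were non-pregnant. No source used here says why they stood apart, and a mix-up of libraries cannot be told apart from a difference between these heifers, so the outcome contrast of station B and that of AI-pregnant heifers between stations are given with and without them.

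In station A, FCER1A was lower on average in NB-pregnant heifers, and the outcome groups overlapped. The AI-pregnant heifers had 8.34 CPM at the lowest, a median of 15.9 CPM and 30.9 CPM at the highest. The NB-pregnant heifers had 3.65, 10.8, 10.02, 8.43 and 3.11 CPM in SL220767, SL220768, SL220769, SL220773 and SL220774. Of the NB-pregnant heifers, 3 lay above the lowest AI-pregnant heifer, SL220771. Means were 17.7 ± 7.83 CPM (SD, n = 6) and 7.21 ± 3.61 CPM (SD, n = 5), and the log2 fold change of NB-pregnant over AI-pregnant heifers was -1.17 in edgeR with TMM factors. Whether a lower level means fewer cells of a type or less RNA per cell cannot be told apart in whole white blood cells.

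SIGLEC14 was lower in every NB-pregnant than in any AI-pregnant heifer of station A. AI-pregnant heifers ranged from 6.20 to 12.9 CPM with a median of 9.53 CPM. The NB-pregnant heifers had 4.37, 5.85, 4.84, 2.68 and 2.07 CPM in the same order of libraries as above. The groups did not overlap, but the gap between SL220771 at 6.20 CPM and SL220768 at 5.85 CPM was smaller than counting error: the exact Poisson 95% interval was 4.24 to 8.76 CPM for 32 read pairs in the first and 4.18 to 7.97 CPM for 40 read pairs in the second. These intervals cover counting error only. Means were 9.95 ± 2.58 CPM (SD, n = 6) and 3.96 ± 1.56 CPM (SD, n = 5), with a log2 fold change of -1.19.

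Both members belong to the 10 genes that the rule of the study, applied to these counts, calls lower in NB-pregnant heifers, which is 0.0825% of the 12128 genes. SIGLEC14 is also among 14 genes, or 0.115%, whose CPM in NB-pregnant heifers all lay below those of AI-pregnant heifers. Since the genes were selected on this contrast, nothing is read from either share.

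Within the classes of station A libraries the order of the outcomes was kept on average. The genes were selected for that order in these same libraries, so the split is a description and cannot support the difference. Among even libraries FCER1A had 13.7 to 30.9 CPM in 4 AI-pregnant heifers against 10.02 and 10.8 CPM in 2 NB-pregnant heifers. Among top-heavy libraries it had 8.34 and 13.8 CPM in 2 AI-pregnant heifers against 3.11, 3.65 and 8.43 CPM in 3 NB-pregnant heifers, with SL220773 just above SL220771. SIGLEC14 had 8.69 to 12.9 CPM against 4.84 and 5.85 CPM among even libraries, and 6.20 and 9.17 CPM against 2.07 to 4.37 CPM among top-heavy ones. Top-heavy libraries were lower than even libraries in both genes, with means of 7.46 ± 4.33 against 17.5 ± 7.87 CPM for FCER1A and 4.90 ± 2.88 against 9.17 ± 3.40 CPM for SIGLEC14 (SD, n = 5 and 6). The part of the class of the library in the outcome difference was not tested.

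Ranks within a library, which do not use its total, narrowed the distance between classes. FCER1A stood at the 34.1 ± 10.1 percentile of the retained genes in even and at the 28.5 ± 9.39 percentile in top-heavy libraries. SIGLEC14 stood at the 23.2 ± 6.75 and the 22.2 ± 8.75 percentile. By outcome, the rank of FCER1A was the 38.0 ± 7.45 percentile in AI-pregnant and the 23.8 ± 5.67 percentile in NB-pregnant heifers, and that of SIGLEC14 the 28.0 ± 4.08 and the 16.4 ± 4.65 percentile (SD, n = 6 and 5). The rank of SIGLEC14 in the NB-pregnant library SL220767, 23.9, was above that of the AI-pregnant library SL220766, 22.6, so its outcome groups, apart in CPM, overlapped in ranks.

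**Figure D1:**
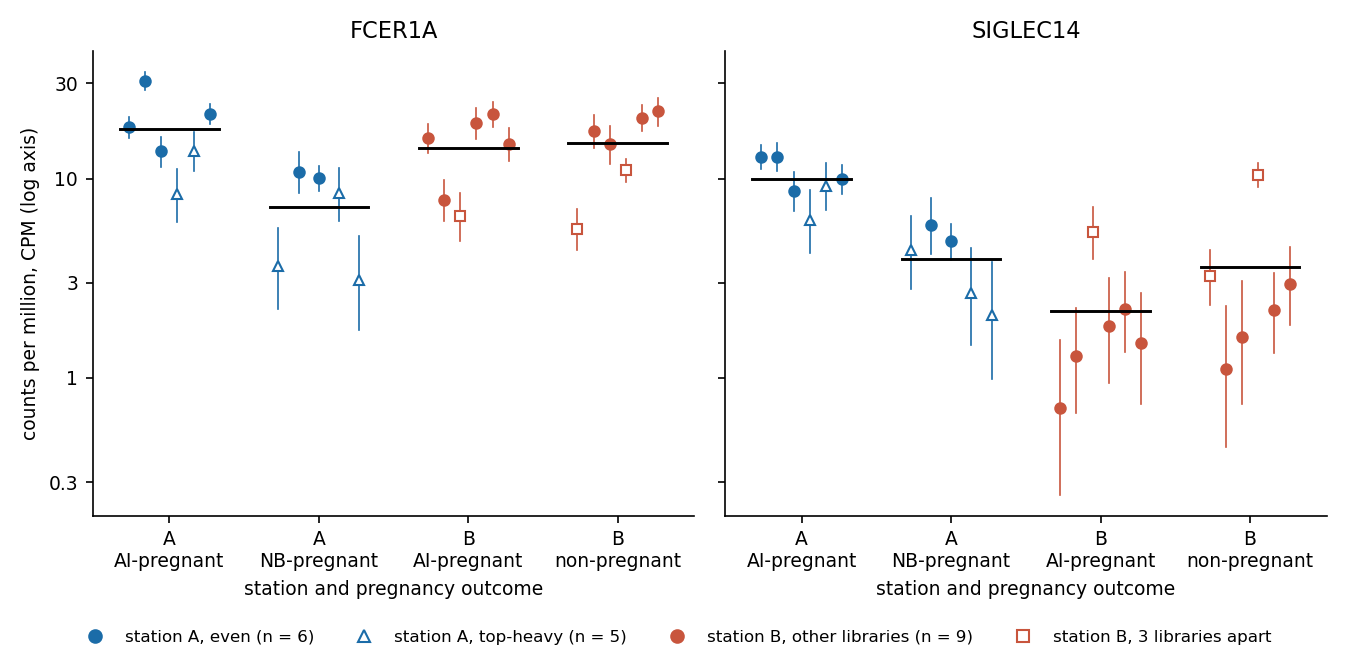
CPM (log axis) of FCER1A and SIGLEC14 in each of 23 libraries by station and pregnancy outcome, with the exact Poisson 95% interval of each count as a vertical line and the group mean as a black bar. SIGLEC14 lay between 0.71 and 2.96 CPM in the 9 filled station B libraries, while open squares, the 3 libraries that stood apart, reached 10.5 CPM.

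The station B libraries were not used to choose the genes, and they were compared to ask whether the levels also differ there between AI-pregnant and non-pregnant heifers. FCER1A had 15.9, 7.82, 6.48, 18.9, 21.0 and 14.9 CPM in the AI-pregnant heifers SL253803, SL253807, SL253808, SL253809, SL253810 and SL253812. In the non-pregnant heifers SL253804, SL253805, SL253806, SL253811, SL253813 and SL253814 it had 5.61, 17.4, 14.9, 11.01, 20.2 and 21.7 CPM. The groups overlapped over nearly their whole range, and the low libraries of both included those that stood apart. The AI-pregnant heifers averaged 14.2 ± 5.86 CPM and the others 15.1 ± 6.03 CPM (SD, n = 6 each). The log2 fold change of non-pregnant over AI-pregnant heifers was 0.09, with a 95% interval of -0.75 to 0.92 (edgeR quasi-likelihood test, adjusted p = 0.930; two-sided exact permutation test of CPM, p = 0.781).

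SIGLEC14 was low in most heifers of station B, whatever the outcome. In the AI-pregnant heifers, in the order given for FCER1A, it had 0.71, 1.29, 5.42, 1.82, 2.21 and 1.49 CPM. In the non-pregnant heifers it had 3.23, 1.11, 1.61, 10.5, 2.18 and 2.96 CPM. The highest values, 10.5, 5.42 and 3.23 CPM, belonged to SL253811, SL253808 and SL253804, the libraries that stood apart. Means were 2.15 ± 1.68 and 3.596 ± 3.46 CPM (SD, n = 6 each). The log2 fold change was 0.82 with a 95% interval of -0.55 to 2.19 (edgeR quasi-likelihood test, adjusted p = 0.874; two-sided exact permutation test, p = 0.465).

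Neither gene passed the test in station B, where 0 of 10832 genes (0%) had an adjusted p under 0.05 in edgeR's quasi-likelihood test. At an unadjusted p under 0.05 there were 48 genes, and edgeR's likelihood ratio test and DESeq2 each also gave 0 genes after adjustment. The contrasts of the stations differ in their second group, the station A values carry the selection of the genes, and the difference between the contrasts was not tested.

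Without the 3 libraries that stood apart, FCER1A averaged 15.7 ± 5.02 CPM over 5 AI-pregnant heifers and 18.5 ± 3.03 CPM over 4 that were non-pregnant (SD). Its log2 fold change was 0.21 (95% interval -0.35 to 0.77, edgeR adjusted p = 0.99999). SIGLEC14 had 1.502 ± 0.56 and 1.97 ± 0.79 CPM (SD) in the same heifers. Its log2 fold change fell to 0.37, with an interval of -0.49 to 1.22 (edgeR adjusted p = 0.99999). The test called 1 of 10374 genes in these 9 libraries, which was neither member. The size of the SIGLEC14 difference turned on single libraries: it was 0.0017 without SL253811 and 1.38 without SL253808.

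The 3 libraries moved the genes in opposite directions. FCER1A had 5.61, 6.48 and 11.01 CPM in SL253804, SL253808 and SL253811, against 7.82 to 21.7 CPM and a mean of 17.0 ± 4.27 CPM in the other 9 libraries (SD). SIGLEC14 had 3.23, 5.42 and 10.5 CPM in the same libraries, all above the highest of the other 9, where it ranged from 0.71 to 2.96 CPM with a mean of 1.71 ± 0.67 CPM (SD). In those 9 libraries SIGLEC14 rested on few reads, 6 to 21 read pairs, so that SL253803 at 0.71 CPM had a counting interval of 0.26 to 1.54 CPM. In SL253811, the library with most read pairs counted on genes, SIGLEC14 rested on 214 read pairs and FCER1A on 225.

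The station contrast asks how the same outcome, AI-pregnant, compares between sites. The AI-pregnant heifers of station A took part in the selection of the genes, so the tests of this contrast are not free of it. FCER1A averaged 17.7 ± 7.83 CPM at station A against 14.2 ± 5.86 CPM at station B (SD, n = 6 each), within overlapping ranges. Its log2 fold change of station B over station A was -0.30, with a 95% interval of -1.11 to 0.51 (edgeR quasi-likelihood test, adjusted p = 0.498; exact permutation test, two-sided, p = 0.431). SIGLEC14 was 4.69-fold lower in station B, 2.15 ± 1.68 against 9.95 ± 2.58 CPM (SD, n = 6 each). On the log2 scale the change was -2.23 with an interval of -3.25 to -1.21 (edgeR adjusted p = 0.00290). The 6 heifers of station B reached at most 5.42 CPM and those of station A at least 6.20 CPM, so the groups did not overlap (exact permutation test, two-sided, p = 0.00216, the smallest value this design allows). The highest of station B was SL253808, one of the libraries apart.

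SIGLEC14 was 1 of many genes in that contrast. Of 12807 genes, 57.6% passed the same test, 27.7% of all genes being lower in station B, and the median over all genes was -0.22 on the log2 scale. By lack of overlap in CPM, 1171 genes, or 9.14%, were lower in station B. In size the change of SIGLEC14 was among the lowest 16.5% of the log2 fold changes. Without the 3 libraries of station B that stood apart, 78.1% of 12629 genes passed, and SIGLEC14 was 6.50-fold lower, with a log2 fold change of -2.70 (interval -3.39 to -2.02, edgeR adjusted p = 3.14e-07, n = 5 and 6). FCER1A then had a log2 fold change of -0.14 (interval -0.81 to 0.52, edgeR adjusted p = 0.686). Once the leading principal component of all 23 libraries had been added to the model as a covariate, the log2 fold change of SIGLEC14 was -0.83 and did not pass (edgeR adjusted p = 0.979), and 0 genes passed in that fit. The same covariate took FCER1A from -0.30 to -1.44, which did not pass either (edgeR adjusted p = 0.979). How much of the station difference this component itself carries was not measured, so nothing is read from that fit about either gene.

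The AI-pregnant heifers of station A are the upper group of the contrast on which both genes were chosen, which sets the reference of this comparison high. NB-pregnant heifers of station A, at 2.07 to 5.85 CPM of SIGLEC14, overlapped with both groups of station B. With the mean of both outcome groups in each station, SIGLEC14 was 2.33-fold lower in station B, with a log2 fold change of -1.22 (interval -1.93 to -0.50, edgeR adjusted p = 0.00441, n = 12 and 11), where 66.7% of genes passed. FCER1A then turned to a log2 fold change of 0.38 in favour of station B (interval -0.22 to 0.97, edgeR adjusted p = 0.240). This contrast was added after the data had been seen.

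**Figure D2:**
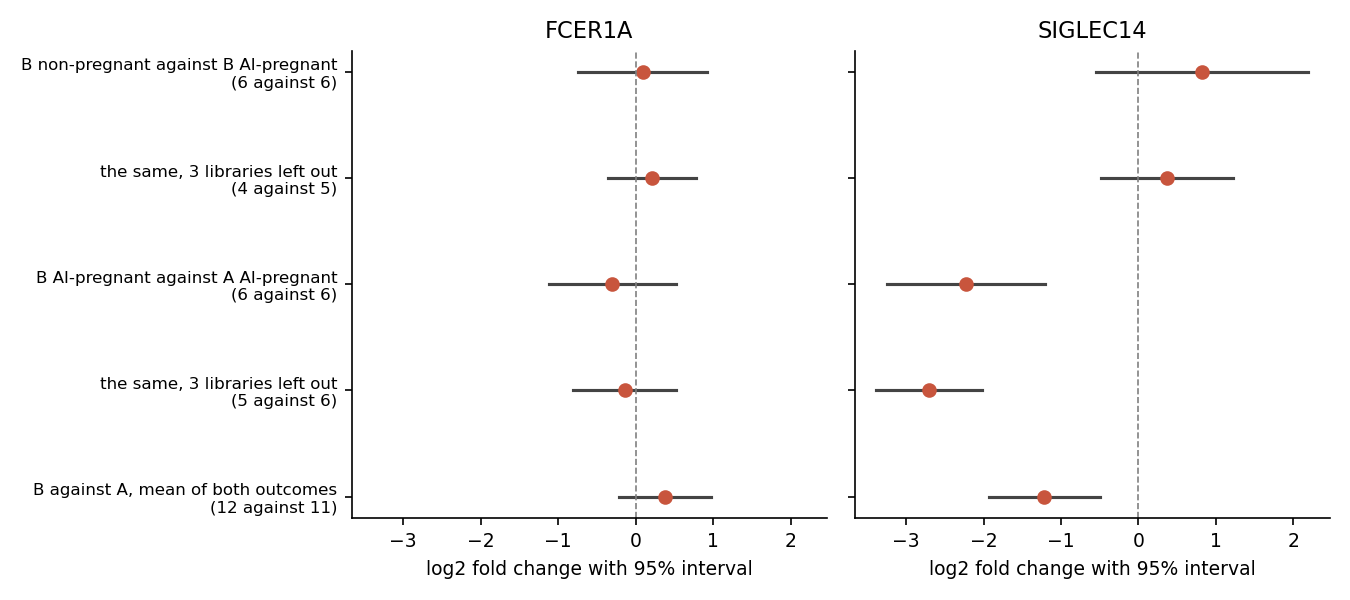
Log2 fold changes of FCER1A and SIGLEC14 (points) with 95% intervals (lines) from edgeR's quasi-likelihood fit, for 5 comparisons named on the vertical axis with the number of libraries in each group. Intervals of FCER1A all include 0, and those of SIGLEC14 lie below 0 in the 3 comparisons between stations. The AI-pregnant heifers of station A, part of those 3 comparisons, also took part in the selection of the genes.

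Ordered by mean CPM, FCER1A was highest in AI-pregnant heifers of station A (17.7), followed by non-pregnant (15.1) and AI-pregnant heifers of station B (14.2) and by NB-pregnant heifers of station A (7.21). The first 3 groups differed by less than the SD within any of them. SIGLEC14 was highest in AI-pregnant (9.95) and next in NB-pregnant heifers of station A (3.96), then in non-pregnant (3.596) and AI-pregnant heifers of station B (2.15). The last 3 groups overlapped in range. Per gene length, as FPKM of the authors, FCER1A had 16.3 ± 7.24, 14.0 ± 5.50, 13.1 ± 5.38 and 6.66 ± 3.33 in the order just given for it (SD). The FPKM of SIGLEC14 were 5.803 ± 1.503, 2.31 ± 0.91, 2.13 ± 2.09 and 1.27 ± 1.01 in its order (SD).

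FCER1A was the more abundant transcript per length in every library, and the ratio between the genes set most of station B apart. On the FPKM scale, FCER1A exceeded SIGLEC14 in 23 of 23 libraries, and on the CPM scale in 22, with SL220767 as the exception. In station A the CPM ratio of FCER1A to SIGLEC14 ran from 0.83 to 3.14, with a median of 1.57. In 9 libraries of station B it ran from 6.08 to 22.5, with a median of 9.5, above every library of station A. In SL253804, SL253808 and SL253811 it was 1.74, 1.20 and 1.05, inside the range of station A. By outcome the ratio overlapped in both stations, with medians of 1.54 in AI-pregnant and 1.85 in NB-pregnant heifers, and of 9.75 in AI-pregnant and 8.28 in non-pregnant heifers.

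**Figure D3:**
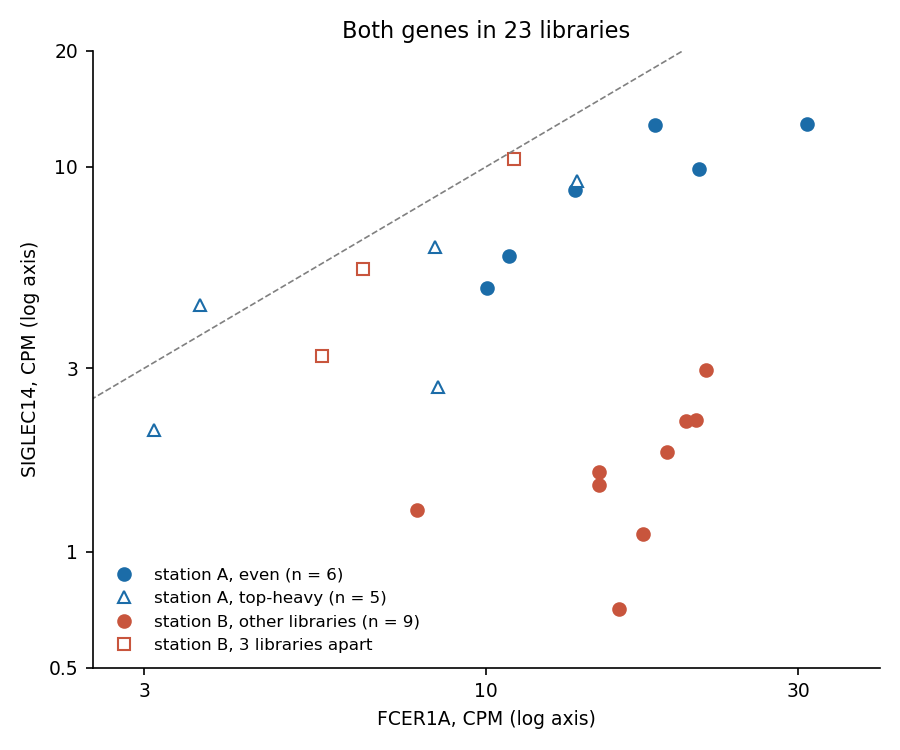
CPM of SIGLEC14 against CPM of FCER1A (both log axes) in 23 libraries, with the dashed line where both are equal. The 9 filled red points of station B lie far below the line, at ratios of 6.08 or more, and the 3 open squares lie among the station A libraries.

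The relation of the genes over the libraries of a station depended on the libraries and on the scaling. Pearson's r of their log2 CPM, as deviations from the outcome means, was 0.46 over 11 libraries of station A and -0.38 over 12 of station B. In station A it ran from 0.18 to 0.76 with a heifer left out, and was 0.70 without normalization factors, 0.42 with the first principal component taken out and 0.80 without centring on outcomes. Without SL253804, SL253808 and SL253811, r in station B was 0.34 over 9 libraries, and with the component taken out of all 12 it was 0.65. Libraries of a station share their depth and composition, so these values are descriptions, and the difference between stations was not tested. The first principal component was computed in each station apart and its sign is arbitrary, so its r is not comparable in sign between stations. Without centring on outcomes, r with it was, for stations A and B, -0.42 and -0.66 for FCER1A and -0.25 and 0.88 for SIGLEC14. With the log2 library total, also without centring, FCER1A had 0.51 and -0.43, and SIGLEC14 0.39 and 0.70.

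The spread within outcome groups of station A is given as a description, because choosing genes on this contrast favours a small spread. The SD of log2 CPM was 0.57 for FCER1A, larger than in 39.9% of 1566 genes within 0.5 log2 units of its mean level. For SIGLEC14 it was 0.37, larger than in 12.1% of 1282 such genes. In station B these SD were 0.68 and 0.99 over 12 libraries, and 0.43 and 0.49 without the 3 libraries that stood apart. They were larger than in 41.1% and 48.7% of genes at their level over 12 libraries, and than in 62.2% and 26.1% over 9.

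The genes most like each member were ranked by the lower of their r in station A and in station B, among the 10421 other genes retained in both. FCER1A had 11 genes with r above 0.7 in both stations and 11 with r below -0.7 in both. Without normalization factors these counts were 256 and 60, and with the first principal component taken out they were 8 and 29. By station, with TMM factors, 195 genes were above 0.7 in A and 1032 in B, and 132 and 1309 were below -0.7. Whether 11 shared genes exceed what unrelated lists of these sizes would share was not tested. The genes closest to FCER1A were ENSBTAG00000031012, with r of 0.79 and 0.78 for stations A and B, and ENSBTAG00000011623, with 0.78 and 0.86. The latter held without the 3 station B libraries (0.76 over 9 libraries), while the former fell to 0.34. ENSBTAG00000011623 was more abundant than FCER1A, at 33.4 to 95.9 CPM in station A against 67.3 to 176 CPM in B, and it had 67.3 to 73.9 CPM in the 3 libraries against 135 to 176 CPM in the other 9. Moving against FCER1A were ENSBTAG00000009715, with r of -0.81 and -0.76, and ENSBTAG00000006870, with -0.75 and -0.78. Without the 3 libraries they had -0.42 and -0.70 in station B, and without normalization factors -0.79 and -0.52 in station A.

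SIGLEC14 had 53 genes with r above 0.7 in both stations and 20 below -0.7 in both. Without normalization factors these counts were 828 and 182, and with the first principal component taken out 6 and 6. By station, with TMM factors, 69 genes were above 0.7 in A and 3902 in B, and 27 and 3150 were below -0.7. ENSBTAG00000000666 had r of 0.87 in each station and ENSBTAG00000000131 had 0.91 and 0.85. Over station B both rested on the 3 libraries, and r without them was 0.33 and 0.28. ENSBTAG00000000666 had 61.6 to 105 CPM in the 3 libraries, close to its 51.4 to 99.7 CPM in station A, and 3.98 to 9.59 CPM in the other 9. Opposite to SIGLEC14 on the TMM scale were ENSBTAG00000011133, with r of -0.88 and -0.91, and ENSBTAG00000024275, with -0.86 and -0.89. Without normalization factors their r in station A was only -0.27 and -0.034, so there it rests on the scaling. Without the 3 libraries these had -0.58 and -0.53 in station B. No names were matched to these identifiers.

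The share of genes with a high r turned on the scaling in station A and on the 3 libraries in station B. Over 12 libraries, 9.90% of the compared genes had r above 0.7 with FCER1A and 37.4% with SIGLEC14, against 1.871% and 0.66% over the 11 libraries of station A. Without normalization factors the shares were 11.2% and 36.3% in station B against 20.2% and 12.3% in station A, so that for FCER1A the order of the stations turned. Without the 3 libraries the shares in station B were 2.25% and 9.87%. The number of genes above 0.7 in both stations was then 4 for FCER1A and 9 for SIGLEC14. Those above it in station A and in the 9 station B libraries were 195 and 234 for FCER1A, and 69 and 1029 for SIGLEC14. Whether 4 and 9, or the shared counts over 12 libraries, exceed what unrelated lists would share was not tested.

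**Figure D4:**
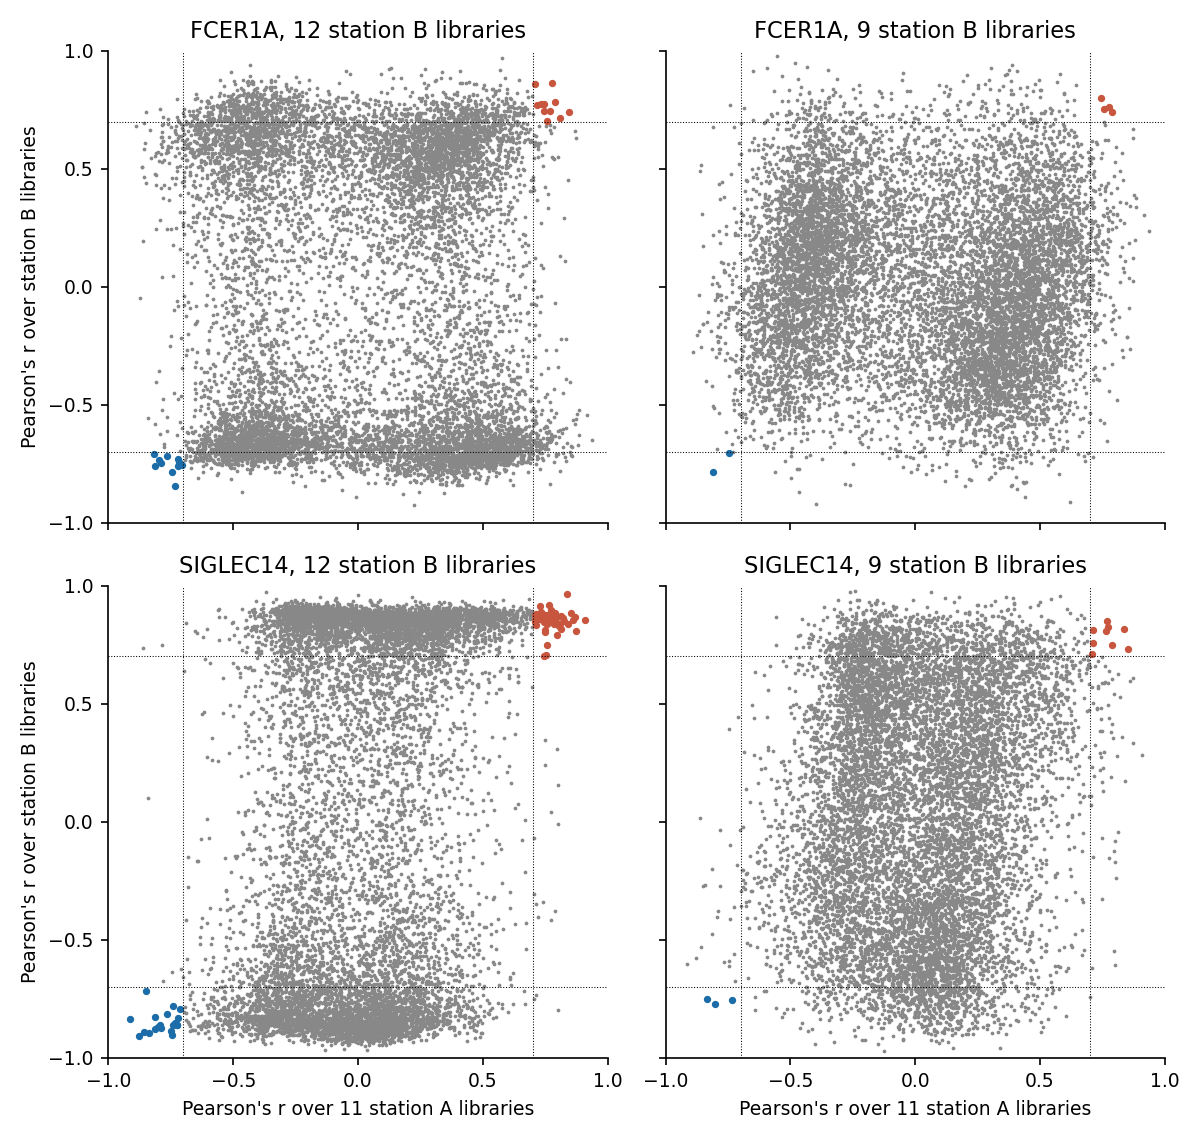
Pearson's r of each of 10421 genes with FCER1A (top) and SIGLEC14 (bottom), over 11 station A libraries on the horizontal axis and over 12 (left) or 9 (right) station B libraries on the vertical axis. Red and blue points pass 0.7 or -0.7 in both stations, and the bands at high r with SIGLEC14 over 12 libraries thin out once the 3 libraries are left out.

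**Figure D5:**
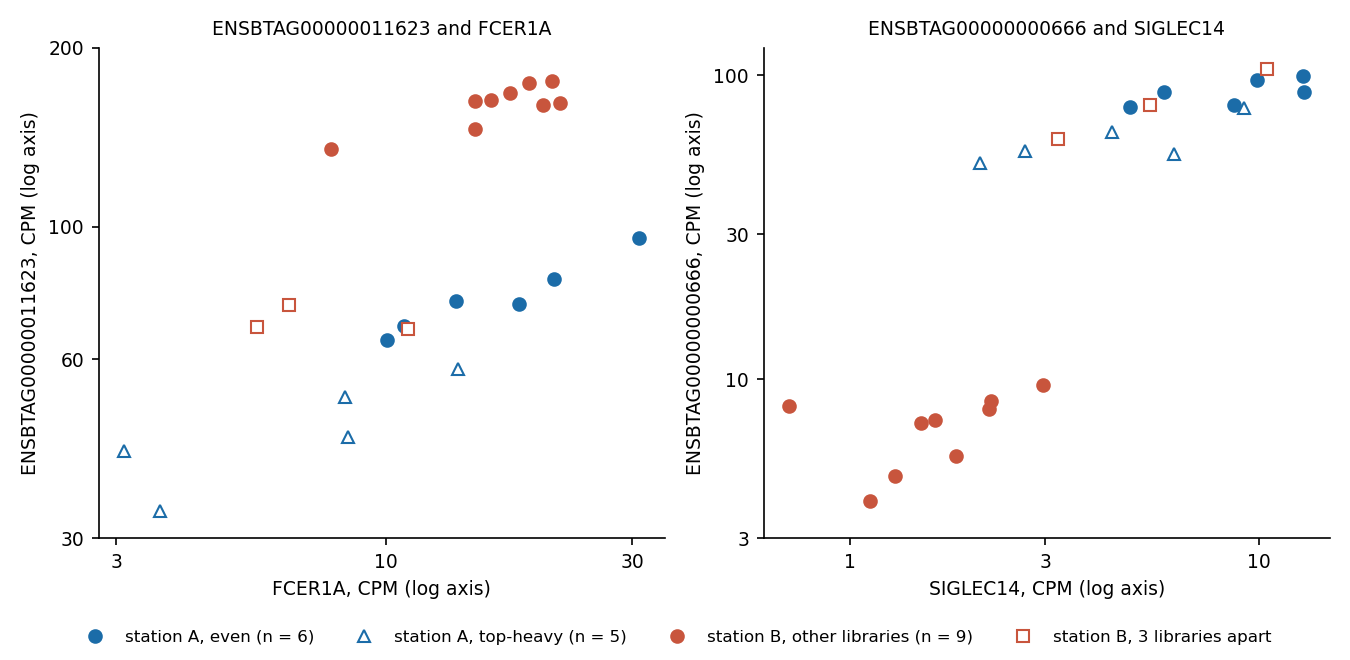
CPM of ENSBTAG00000011623 against FCER1A (left) and of ENSBTAG00000000666 against SIGLEC14 (right) in 23 libraries, on log axes, with symbols by station and library class. The 3 open squares lie near the station A libraries in both plots, away from the other 9 libraries of station B.

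The other 16 genes that the study called in station A were set beside each member, although they were chosen on the same heifers. With FCER1A their r ran from -0.67 for MNS1, a protein of the axoneme, to 0.58 for ANG, a secreted ribonuclease, over station A. With SIGLEC14 it ran from -0.30 for TTLL1, a tubulin glutamylase, to 0.33 for TPPP, which promotes tubulin polymerization. None passed 0.7 in either direction there. In station B, where 14 of the 16 were retained, MNS1 had r of -0.86 with SIGLEC14 over 12 libraries and -0.77 over 9. Over 9 libraries ADAM20, a metalloprotease family member, had -0.77 and ANG 0.70, after -0.35 and 0.64 over 12. ALDH5A1, an enzyme of succinic semialdehyde oxidation, had 0.73 over 12 libraries and 0.01 over 9. Such values were common: of 10421 compared genes, 3150 had r below -0.7 with SIGLEC14 over 12 libraries and 670 over 9. Above 0.7 there were 3902 and 1029. With the first principal component taken out of all 12, r was -0.34 for MNS1, -0.14 for ADAM20, 0.39 for ANG and 0.16 for ALDH5A1.

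LYZ, the lysozyme of granulocytes and monocytes, is a further myeloid gene among those the study named. It had r of 0.05 with FCER1A and 0.18 with SIGLEC14 in station A. In station B it had 0.49 and -0.38 over 12 libraries, and 0.55 and 0.60 over 9. LOC618633, which the study described as like a myeloid-associated differentiation marker, had -0.28 with FCER1A and -0.044 with SIGLEC14 in station A. Its r in station B was -0.39 and 0.40 over 12 libraries, and -0.11 and -0.10 over 9. ALAS2, the heme synthesis enzyme of red cell precursors, had r of 0.10 with FCER1A and -0.34 with SIGLEC14 in station A. In station B these were -0.52 and 0.73 over 12 libraries, and -0.41 and 0.25 over 9. Among the genes of immune recognition, BOLA-DQB, a class II histocompatibility chain, had 0.40 with FCER1A and 0.15 with SIGLEC14 in station A, and -0.63 and 0.45 over 12 libraries of station B. The makeup of the cells in each library was not measured, and its part in these levels was not tested.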

How the data were processed

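PWBC RNA of 23 heifers was sequenced from stranded poly-A libraries. Alignment by the authors was to the genome build UMD3.1, and after duplicates and multiply aligned pairs had been dropped, HTSeq counted pairs per Ensembl gene. The deposited counts are whole numbers without normalization, and the FPKM were made by the authors from the counts of retained genes, gene length and library total. A check of the counts found the retained genes to be those that exceeded 1 CPM in at least 6 libraries of a station.

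CPM were computed from library totals. Stations B and B against A were tested with edgeR's quasi-likelihood test (TMM factors, robust dispersion, Benjamini-Hochberg adjustment over all genes tested, threshold 0.05), beside an exact permutation test of CPM. Heifers are the replicates. The model of both stations shares 1 spread over 23 libraries. Intervals come from the quasi-likelihood F and its degrees of freedom. The rule of the study is an unadjusted p of at most 0.01 in edgeR's likelihood ratio test without factors and in DESeq2. Correlations used log2 CPM with a prior count of 2. The test scripts were checked on simulated counts.

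Alternatives were no factors, DESeq2 size factors, other tests, other filters, covariates, left-out libraries and other scales of correlation. The members, lists and tests were chosen with earlier results of these data known. The text names the members, the genes most and least like each, at most 2 identifiers in each direction, and genes called by the study. Lists of IgE receptor, Siglec and cell type genes were not analysed, because 0 rows of the gene table carry an Ensembl identifier. Of their 115 symbols only LYZ and ALAS2 had an identifier, through the study. Used were R 4.3.3, edgeR 4.0.16, limma 3.58.1, DESeq2 1.42.0, Python 3.11.15, numpy 2.4.6, pandas 2.3.3, scipy 1.17.1 and matplotlib 3.10.9.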

Additional observations from a re-analysis of the deposited data

Results flagged for a closer look

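The CPM of SIGLEC14 in AI-pregnant heifers of station B had a library far from the others: SL253808 at 5.42 CPM, with the next at 2.21 CPM. In non-pregnant heifers of station B the library SL253811 at 10.5 CPM was far from the others, with the next at 3.23 CPM. These were 2 of 8 sets of a gene in an outcome group, both of SIGLEC14. Chance marks about 1 set in 20 only for independent values with a normal spread, which CPM from low counts need not have. No excess over chance is read from them. Both libraries are among the 3 of station B that stood apart in the expression of all genes, and their FCER1A, at 6.48 and 11.01 CPM, was not far from the rest.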

How the results depend on the processing

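Both members in station A, where no test was made, and SIGLEC14 in station B, which never passed, kept their direction under the alternatives that gave a value, 19 for each. In station A the genes were selected for that direction on the same heifers, so nothing is read from its being kept there. Log2 fold changes with a heifer left out ran in station A from -1.30 to -0.96 for FCER1A and from -1.31 to -1.06 for SIGLEC14. In station B they ran from 0.0017 to 1.38 for SIGLEC14 and from -0.053 to 0.26 for FCER1A, which turned sign without SL253807 (-0.034), SL253808 (-0.053) or SL253814 (-0.026) while its edgeR adjusted p stayed at 0.905 or more throughout. Between stations they ran from -0.46 to -0.05 for FCER1A and from -2.75 to -2.08 for SIGLEC14. FCER1A turned to 0.38 with both outcomes averaged, a contrast added after seeing the data, and took -1.44 with a principal component as covariate (edgeR adjusted p = 0.979). With that covariate SIGLEC14 no longer passed between stations, at -0.83, but how much of the station difference the component carries was not measured. The correlation of the members kept its sign in station A, from 0.18 to 0.80. In station B it ran from -0.47 to -0.17 with a heifer left out, and moved to 0.34 without the 3 libraries and to 0.65 with the component taken out. The genes most like the members depended on the setting: of the first 5 for each, 10 in all, 2 were shared without factors, 1 with the component taken out, 3 by Spearman's rho and 2 without the 3 libraries, the last added after seeing the data. The cause was not tested. With a minimum of more than 1 CPM in every library SIGLEC14 gave no value in station B or between stations. No paired analysis was possible because replicate numbers were given in accession order and heifers of different groups share none. Counts of 6 to 21 read pairs limit SIGLEC14 in 9 libraries of station B.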
